A study of Mus musculus with 12 samples.

Results

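The mouse genome encodes its potassium channels mainly in genes whose symbols begin with Kcn, and this family was followed here through 3 kinds of cultured cell from the subventricular zone, the germinal layer beside the lateral ventricles. Its members were taken by symbol alone, as the protein-coding genes of the count table whose GENCODE M21 symbol starts with Kcn. This gave 94 genes of the 55401 identifiers in the table. The same prefix on 5 further genes that do not code for protein, the imprinted RNA Kcnq1ot1 among them, was passed over. Of the 94 genes, 58 had enough counts to be tested, within 16135 genes tested in all.

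All cells came from CD1 mice and were grown as primary cultures, and poly(A) RNA was sequenced in 12 libraries, 4 from each group. Postnatal oligodendrocyte precursor cells (OPCs) were obtained by dissociating primary neurospheres of pups aged 0 to 2 days and growing them for 2 days as a monolayer, in medium with 10 ng/mL of both FGF and PDGF-AA. Adult neural stem cells (NSCs) were neurospheres, free-floating clusters of dividing cells, from animals aged 2 months. Postnatal NSCs were neurospheres of pups aged 0 to 2 days. Both kinds of neurosphere were kept for 6 to 7 days in a medium whose EGF was at 20 ng/mL, FGF at 10 ng/mL and heparin at 2 ug/mL, and every medium held 2% B27 supplement. The labels speak of 4 independent litters. Since the OPC cultures differ from the neurospheres in growth factors, attachment and time in culture as well as in cell type, these cannot be told apart. OPCs and adult NSCs differ in age in addition.

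Potassium channels let potassium leave or enter the cell along its gradient and so set the resting potential and shape electrical activity. Voltage-gated (Kv) channels open on depolarization, inward rectifiers hold the membrane near the potassium equilibrium, two-pore domain channels carry leak current, and calcium- or sodium-activated channels couple the membrane to ion entry. Pore subunits assemble with auxiliary proteins, among them the KChIP, Kv beta, KCNE and BK beta subunits, that alter their gating or number at the surface. In glia, strong inward rectification through Kcnj10 and uptake of potassium by astrocytes are well known, and OPCs are known for outward Kv currents, including a fast A-type current, that recede as oligodendrocytes mature.

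Gene counts per library summed to between 17226501 and 23651396 in OPCs, to between 16756231 and 20064043 in adult NSCs and to between 38928989 and 54801726 in postnatal NSCs. The unit of level is CPM (counts per 1000000 of the scaled library size), printed for libraries 1 to 4 of each group in that order or as mean ± SD of the 4 libraries. Where levels of different genes are compared, CPM per kilobase (kb) of annotated exon is used. After a log2 fold change, ± gives its standard error. The OPC marker Pdgfra averaged 1433 ± 710 CPM in OPCs, 12.2 ± 2.98 CPM in adult NSCs and 230.0 ± 59.6 CPM in postnatal NSCs, and none of the 6 markers of an OPC list was lower in OPCs than in either kind of NSC. Neural stem and radial glia markers, a list of 6, summed to between 5108 and 8432 CPM in OPCs, between 8967 and 9540 CPM in adult NSCs and between 7051 and 8236 CPM in postnatal NSCs. Of the 6 OPC markers, 4 were higher in OPCs than in postnatal NSCs and 6 higher than in adult NSCs. Sox10 and Olig1 did not pass against postnatal NSCs (edgeR adjusted p = 0.382 and 0.081). In sum, stem cell markers were abundant in all groups and overlapped between OPCs and postnatal NSCs. Singly, Nes, Vim and Prom1 were lower in OPCs than in postnatal NSCs (log2 fold changes -1.04, -1.71 and -0.63). Sox2 and Fabp7 were higher (0.73 and 0.89), and Slc1a3 did not pass. Of 7 neuroblast and neuron markers, 6 were tested and 5 were higher in OPCs than in postnatal NSCs. Their summed level lay between 1292 and 1985 CPM in OPCs, between 658 and 744.5 CPM in adult NSCs and between 663.6 and 1006 CPM in postnatal NSCs. Most of it was the microtubule gene Map2. The neuroblast gene Dcx averaged 80.3 ± 57.9 CPM in OPCs, 1.00 ± 0.552 CPM in adult NSCs and 12.2 ± 5.98 CPM in postnatal NSCs, 6.56-fold higher in OPCs than in postnatal NSCs (log2 fold change 2.72 ± 0.52, edgeR adjusted p = 0.00123), and Syt1, Rbfox3 and Snap25 were 3.65-fold, 3.43-fold and 2.08-fold higher. Tubb3 did not pass (log2 fold change -0.37 ± 0.35, edgeR adjusted p = 0.413), and Stmn2, with too few counts to be tested, averaged 0.273 ± 0.171 CPM in OPCs, 0.142 ± 0.135 CPM in adult NSCs and 1.83 ± 1.77 CPM in postnatal NSCs. In these bulk samples, fewer cells of a type and less RNA per cell cannot be told apart, and the part of neuronal cells in the results on channels was not tested.

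A pair of libraries stood apart. The mean log2 CPM of 10 genes of DNA replication was 5.11 in OPC 2 and 5.58 in postnatal NSC 3, and lay between 6.74 and 7.44 in the other libraries. OPC 2 was the lowest or the highest of its group for 44 of the 58 channel genes tested (75.9%, against 74.9% of all genes tested), and postnatal NSC 3 for 39 (67.2%, against 71.3%). The channels thus followed the rest of the transcriptome in this. Y-linked genes had next to no counts in 1 adult NSC and 2 postnatal NSC libraries and were present in the others. The sum of their log2 levels was therefore tried as a covariate (the Y-linked covariate).

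In OPCs, 11 of the 58 channel genes tested were higher and 18 lower than in postnatal NSCs, at an adjusted p under 0.05 in edgeR's quasi-likelihood test over all genes. This is 50% of the members, and 45.1% of all genes tested were called in the same comparison, 22.4% higher and 22.7% lower. In adult NSCs, 11 were higher and 22 lower than in postnatal NSCs, or 56.9% of the members against a background of 53.1% (25.2% higher and 27.9% lower). Against adult NSCs, OPCs had 17 higher and 14 lower, or 53.4% against a background of 51.0% (26.3% higher and 24.7% lower). The share of channel genes called was therefore near that of all genes. The median log2 fold change of the members tested was -0.30 between OPCs and postnatal NSCs, -0.24 between adult and postnatal NSCs and -0.01 between OPCs and adult NSCs, and the same medians over all genes were -0.008, -0.025 and 0.006. With OPC 2 and postnatal NSC 3 left out, the first median was 0.005, the third 0.101, and the count of higher genes in OPCs against postnatal NSCs 18 of 57 tested. The fits share groups, so the 3 comparisons are not independent of one another.

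Across the comparisons, 47 members were called at least once, 10 were called in all 3 and 11 in none. By mean CPM, the highest group was OPCs for 18 of the tested members, adult NSCs for 20 and postnatal NSCs for 20. No group thus held the highest level for most members. Called changes of at least 1 on the log2 scale were 9 higher and 13 lower in OPCs against postnatal NSCs. They were 7 and 17 in adult against postnatal NSCs, and 15 and 12 in OPCs against adult NSCs. For the counts in this paragraph, the shares over all genes were not computed. The counts thus describe the members only and set them apart from no other genes. A sequence of calls with OPCs highest, postnatal NSCs between and adult NSCs lowest was held by 5 members, Kcna6, Kcnd2, Kcnip3 and Kcnmb4 among them. The reverse sequence, with adult NSCs highest and OPCs lowest, was held by Kcnk13 and Kcnmb1.

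**Figure D1:**
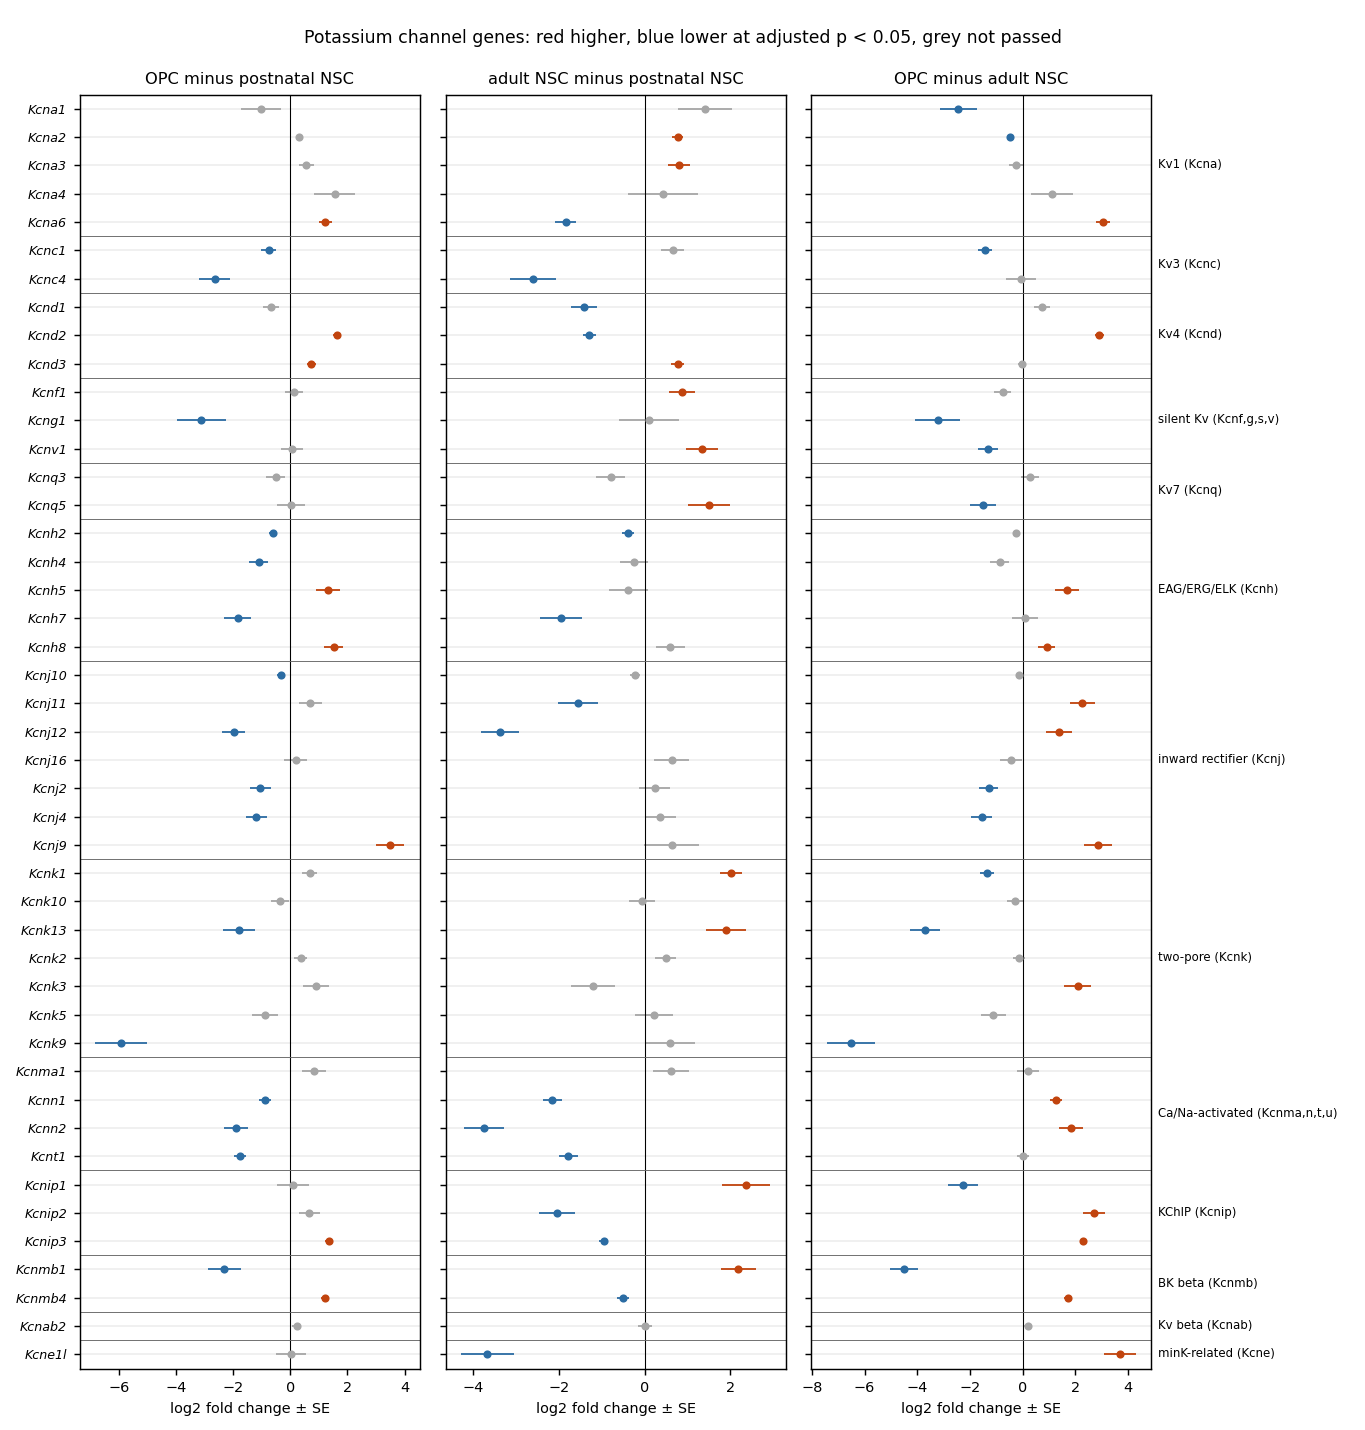
Log2 fold change with its standard error (horizontal axis) of the 45 tested potassium channel genes described in the text, one row a gene, in 3 panels for OPCs against postnatal NSCs, adult NSCs against postnatal NSCs and OPCs against adult NSCs. Red marks genes higher and blue genes lower at an edgeR adjusted p under 0.05 and grey those that did not pass, and 8, 10 and 14 genes are red and 16, 15 and 13 blue in the 3 panels.

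Summed over all 94 members, the level was 337 ± 19.9 CPM per kb in OPCs, 249 ± 11.8 CPM per kb in adult NSCs and 270.4 ± 7.71 CPM per kb in postnatal NSCs, with every OPC library above every NSC library. The makeup of this sum also differed between the groups. Inward rectifiers (Kcnj) made up 26.8% of it in OPCs, 41.5% in adult NSCs and 40.7% in postnatal NSCs. The Kv4 pore genes (Kcnd) made up 20.6% in OPCs, 11.4% in adult NSCs and 10.6% in postnatal NSCs, and their KChIP partners (Kcnip) 20.8%, 6.56% and 10.6% in the same order. Together the Kv4 pores and KChIPs thus reached a level above that of the inward rectifiers in OPCs and below it in both kinds of NSC. Two-pore domain channels (Kcnk) held 4.69% of the sum in OPCs, 10.0% in adult NSCs and 5.44% in postnatal NSCs.

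The summed levels separated the groups in some subfamilies and not in others. For Kv4, the 4 libraries of OPCs lay between 60.1 and 78.2 CPM per kb, those of adult NSCs between 27.5 and 29.8 and those of postnatal NSCs between 27.3 and 29.3. OPCs were above both kinds of NSC, which overlapped. For KChIPs the lowest and highest libraries had 60.8 and 74.3 CPM per kb in OPCs, 14.4 and 18.9 in adult NSCs and 27.8 and 29.3 in postnatal NSCs, with no overlap between any groups. For Kv1 (Kcna) they had 25.5 and 26.9 CPM per kb in OPCs, 19.4 and 20.5 in adult NSCs and 14.3 and 19.1 in postnatal NSCs. BK beta subunits (Kcnmb) were likewise highest in OPCs, between 14.9 and 18.3 CPM per kb, against 4.79 and 6.21 in adult NSCs and 5.80 and 9.06 in postnatal NSCs. Kv3 (Kcnc) ran the other way, between 13.5 and 16.7 CPM per kb in OPCs, 26.5 and 31.0 in adult NSCs and 20.6 and 34.7 in postnatal NSCs, with OPCs below both. Two-pore domain channels were highest in adult NSCs, with libraries between 12.7 and 18.3 CPM per kb in OPCs, 24.2 and 25.8 in adult NSCs and 11.5 and 18.7 in postnatal NSCs. Calcium- and sodium-activated pores were highest in postnatal NSCs, with libraries between 4.16 and 6.04 CPM per kb in OPCs, 3.04 and 3.24 in adult NSCs and 6.11 and 10.9 in postnatal NSCs. Inward rectifiers had libraries between 79.1 and 104 CPM per kb in OPCs, 85.5 and 110.1 in adult NSCs and 106 and 115 in postnatal NSCs, with every OPC library below every postnatal NSC library and adult NSCs overlapping both. Kv7 (Kcnq) was low in all groups, between 1.08 and 1.45 CPM per kb in OPCs, 1.55 and 1.87 in adult NSCs and 1.54 and 1.84 in postnatal NSCs, with OPCs below both. These sums are descriptions and were not tested.

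The calls were spread over the subfamilies, whose counts are small and stand beside 22.4% of all genes higher and 22.7% lower in OPCs against postnatal NSCs, 25.2% and 27.9% in adult against postnatal NSCs, and 26.3% and 24.7% in OPCs against adult NSCs. Counts such as 1 of 5 or 2 of 7 are near these shares and say nothing about a subfamily. In OPCs against postnatal NSCs, no Kv3, two-pore domain or calcium- and sodium-activated gene was higher, and 3 of 4, 2 of 7 and 3 of 8 tested were lower. Of 9 inward rectifiers tested, 1 was higher and 4 were lower, and of 5 EAG-type genes 2 were higher and 3 lower. No Kv1, Kv4 or KChIP gene was lower in this comparison, and 1 of 5, 2 of 3 and 1 of 3 tested were higher. In adult against postnatal NSCs, 6 of the 8 calcium- and sodium-activated genes, 3 inward rectifiers, 2 Kv3 and 2 EAG-type genes were lower with none higher, and 2 two-pore domain and 2 silent Kv genes were higher with none lower. Kv1, Kv4 and KChIP genes went both ways there, with 2, 1 and 1 higher and 1, 2 and 2 lower. In OPCs against adult NSCs, 3 calcium- and sodium-activated and 2 EAG-type genes were higher with none lower, and inward rectifiers had 3 higher and 2 lower.

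**Figure D2:**
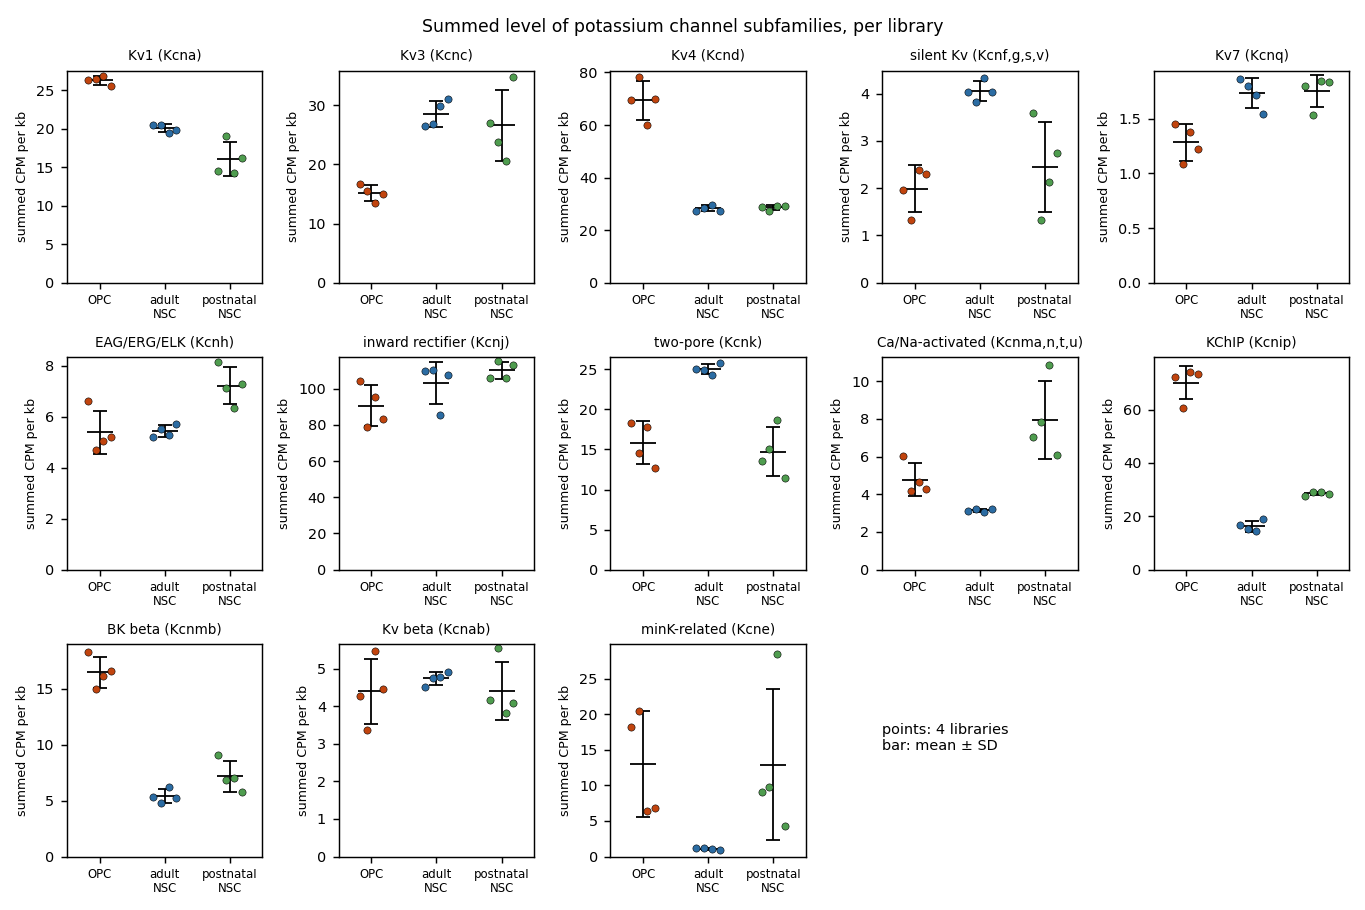
Summed level in CPM per kb of exon (vertical axis) of 13 potassium channel subfamilies, one panel each, in OPC, adult NSC and postnatal NSC libraries. Points are the 4 libraries of a group and bars their mean ± SD. Kv4, KChIP, Kv1 and BK beta panels have all OPC points above all NSC points, and the Kv3 and Kv7 panels have all OPC points below.

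Genes of the Kv4 complex, the source of fast A-type currents, were the largest part of the OPC level. Kcnd2 and Kcnd3 code for pore subunits of Kv4 channels, and Kcnip genes for calcium-binding subunits that hold Kv4 channels at the surface and slow their inactivation. Kcnd2 (ENSMUSG00000060882.5, chromosome 6, 21215503 to 21729805, plus strand, GRCm38) had 242, 328, 186 and 229 CPM in OPCs, 33.5, 37.0, 33.4 and 26.3 CPM in adult NSCs and 78.6, 79.1, 83.8 and 76.8 CPM in postnatal NSCs. The 3 groups did not overlap, with every OPC library highest and every adult library lowest. It was 3.1-fold higher in OPCs than in postnatal NSCs (log2 fold change 1.63 ± 0.15, edgeR adjusted p = 1e-05) and 7.57-fold higher than in adult NSCs (log2 fold change 2.92 ± 0.16, edgeR adjusted p = 8.66e-08). In adult NSCs it was 2.44-fold lower than in postnatal NSCs (log2 fold change -1.29 ± 0.15, edgeR adjusted p = 5.57e-05).

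Kcnip3 (ENSMUSG00000079056.12, chromosome 2, 127456498 to 127522094, minus strand), whose product is a KChIP and is also known as the DNA-binding protein DREAM, followed the same order. Its libraries had 248, 201, 256 and 253 CPM in OPCs, 50.8, 45.1, 41.9 and 57.6 CPM in adult NSCs and 92.4, 97.5, 92.9 and 97.4 CPM in postnatal NSCs, again without overlap. It was 2.52-fold higher in OPCs than in postnatal NSCs (log2 fold change 1.33 ± 0.11, edgeR adjusted p = 3.84e-06), 1.95-fold lower in adult than in postnatal NSCs (log2 fold change -0.96 ± 0.11, edgeR adjusted p = 3.48e-05) and 4.9-fold higher in OPCs than in adult NSCs (log2 fold change 2.29 ± 0.11, edgeR adjusted p = 2.91e-08). Per kb of exon, Kcnip3 stood at 67.6 CPM in OPCs, the second level of the family there after Kcnj10 at 73.1 CPM per kb, and Kcnd2 at 47.8 CPM per kb was the third.

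Kcnd3 did not share this order. It had 213, 135, 226 and 243 CPM in OPCs, 199, 205, 222 and 212 CPM in adult NSCs and 127, 109, 121 and 135 CPM in postnatal NSCs. OPC 2 was the low library of its group, and both OPCs and adult NSCs stayed at or above the highest postnatal NSC library. Kcnd3 was 1.66-fold higher in OPCs (log2 fold change 0.74 ± 0.15, edgeR adjusted p = 0.0017) and 1.71-fold higher in adult NSCs (log2 fold change 0.77 ± 0.15, edgeR adjusted p = 0.00115) than in postnatal NSCs, and the difference between OPCs and adult NSCs did not pass (log2 fold change -0.04 ± 0.15, edgeR adjusted p = 0.856). In adult NSCs, Kcnd3 at 21.8 CPM per kb thus exceeded Kcnd2 at 6.31 CPM per kb, whereas OPCs had 21.3 CPM per kb of Kcnd3 and 47.8 CPM per kb of Kcnd2. Kcnd1, the least abundant pore gene of the subfamily, averaged 1.46 ± 0.335 CPM in OPCs, 0.884 ± 0.338 CPM in adult NSCs and 2.35 ± 0.453 CPM in postnatal NSCs, and was 2.67-fold lower in adult than in postnatal NSCs (log2 fold change -1.42 ± 0.30, edgeR adjusted p = 0.00205).

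The remaining KChIPs were far lower and differed from Kcnip3. Kcnip1 had 1.84, 2.20, 3.17 and 4.08 CPM in OPCs, 13.8, 12.9, 13.7 and 14.1 CPM in adult NSCs and 4.82, 3.40, 2.03 and 0.249 CPM in postnatal NSCs. All adult libraries lay above all others, while OPCs and postnatal NSCs overlapped. It was 5.17-fold higher in adult than in postnatal NSCs (log2 fold change 2.37 ± 0.56, edgeR adjusted p = 0.00395) and 4.83-fold lower in OPCs than in adult NSCs (log2 fold change -2.27 ± 0.57, edgeR adjusted p = 0.00542). Kcnip2 had 6.34, 12.6, 5.13 and 5.04 CPM in OPCs, 1.15, 0.935, 1.13 and 1.23 CPM in adult NSCs and 3.23, 4.18, 8.49 and 2.58 CPM in postnatal NSCs. Here adult NSCs were the low group and did not overlap either of the others. It was 4.15-fold lower in adult than in postnatal NSCs (log2 fold change -2.06 ± 0.42, edgeR adjusted p = 0.00169) and 6.57-fold higher in OPCs than in adult NSCs (log2 fold change 2.72 ± 0.43, edgeR adjusted p = 0.000237). Within the groups, Kcnip2 was highest in OPC 2 and in postnatal NSC 3, the pair of libraries low in replication genes. Kcnip4 had too few counts to be tested.

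The membrane proteins Dpp6 and Dpp10, which complete native Kv4 complexes and speed their gating, are not members of the Kcn family but were measured beside it. Dpp6 had 90.3, 92.1, 78.0 and 81.3 CPM in OPCs, 28.5, 29.4, 29.2 and 30.2 CPM in adult NSCs and 71.0, 85.8, 106 and 66.7 CPM in postnatal NSCs. It was 2.81-fold lower in adult than in postnatal NSCs (log2 fold change -1.49 ± 0.13, edgeR adjusted p = 7.49e-06), and OPCs and postnatal NSCs overlapped (log2 fold change 0.05 ± 0.13, edgeR adjusted p = 0.77). Dpp10 had 26.3, 54.5, 17.2 and 15.5 CPM in OPCs, 0.327, 0.208, 0.732 and 0.185 CPM in adult NSCs and 3.30, 3.56, 9.79 and 2.71 CPM in postnatal NSCs. The 3 groups did not overlap, and OPC 2 and postnatal NSC 3 were the highest of their groups. Dpp10 was 5.87-fold higher in OPCs than in postnatal NSCs (log2 fold change 2.55 ± 0.50, edgeR adjusted p = 0.00134) and 13.1-fold lower in adult than in postnatal NSCs (log2 fold change -3.72 ± 0.65, edgeR adjusted p = 0.000662). Of these 8 genes of the Kv4 complex, adult NSCs thus had less Kcnd2, Kcnd1, Kcnip3, Kcnip2, Dpp6 and Dpp10 than postnatal NSCs, and more Kcnd3 and Kcnip1.

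**Figure D3:**
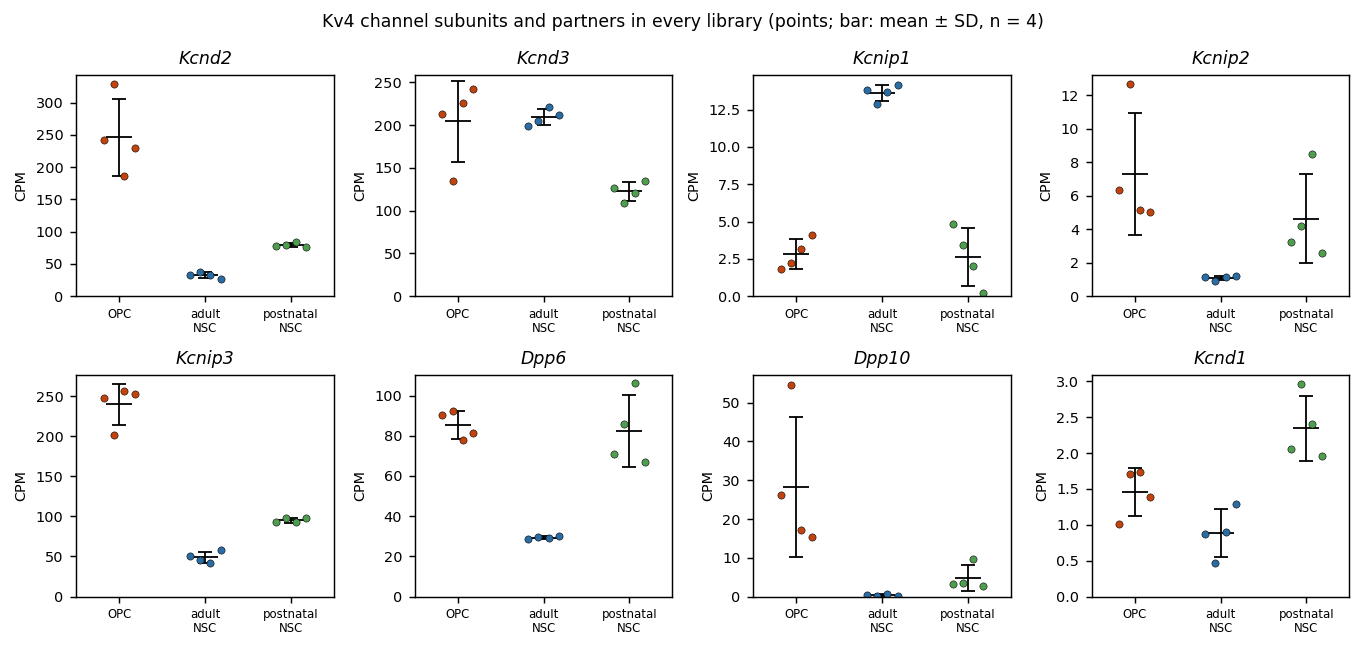
Level in CPM (vertical axis) of 8 genes of the Kv4 channel complex, one panel each, in OPC, adult NSC and postnatal NSC libraries, with points for the 4 libraries of a group and bars for their mean ± SD. Kcnd2, Kcnip3 and Dpp10 are highest in OPCs and lowest in adult NSCs, whereas Kcnip1 is highest in adult NSCs at 12.9 to 14.1 CPM.

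Of the 5 members with OPCs highest and adult NSCs lowest, 4 had an entry among the RefSeq promoter windows. For 3 of these, the 250 bases before the annotated start lay outside the GENCODE gene. These are shown (RefSeq, GRCm38.p6, written 5′ to 3′ on the strand of the gene). Capitals mark matches on either strand to CANNTG, the E-box bound by helix-loop-helix factors, or to GGGCGG, the GC box.

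Kcna6, chr6:126740675-126740924, minus strand: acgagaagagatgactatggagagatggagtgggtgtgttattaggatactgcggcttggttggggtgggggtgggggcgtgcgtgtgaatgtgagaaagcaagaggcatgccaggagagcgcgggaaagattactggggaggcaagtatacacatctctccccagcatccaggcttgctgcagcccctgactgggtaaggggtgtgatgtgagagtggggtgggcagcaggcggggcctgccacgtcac

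Kcnd2, chr6:21215096-21215345, plus strand: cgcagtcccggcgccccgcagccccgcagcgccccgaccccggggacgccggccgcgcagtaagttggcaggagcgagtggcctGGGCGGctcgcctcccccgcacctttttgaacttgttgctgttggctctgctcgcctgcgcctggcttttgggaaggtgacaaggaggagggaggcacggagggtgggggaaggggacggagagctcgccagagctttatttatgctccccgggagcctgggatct

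Kcnip3, chr2:127522095-127522344, minus strand: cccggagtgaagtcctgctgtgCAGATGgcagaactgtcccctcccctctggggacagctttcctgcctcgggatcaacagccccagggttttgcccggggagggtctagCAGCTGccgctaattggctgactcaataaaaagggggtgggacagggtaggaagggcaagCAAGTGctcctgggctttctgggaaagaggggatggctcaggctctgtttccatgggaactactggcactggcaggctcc

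The letters did not share a motif among those searched. The Kcna6 window held neither motif, the Kcnd2 window held 1 GC box that begins 166 bases before the start, and the Kcnip3 window held 3 E-boxes that begin 228, 140 and 80 bases before it. Over the 32851 RefSeq promoter windows of the same length, 66.2% held CANNTG and 32.7% held GGGCGG. The 94 windows of the family, from 69 members with an entry, held these motifs in 67.0% and 44.7%. Searches for ACAAAG and ACAATG, which SOX factors bind and which 16.5% and 10.7% of all windows held, found no match in the 3 windows shown. GC content was 58.8% in the Kcna6, 68.8% in the Kcnd2 and 60.0% in the Kcnip3 window, against a median of 52.4%. Kcnd2 starts at 21215346 in RefSeq, upstream of the GENCODE start given above, and the Kcnip3 window is the most upstream of several.

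Among Kv1 genes, which code for channels of the axon and of glial precursors, the order of cell types changed from member to member. Kcna6 (ENSMUSG00000038077.7, chromosome 6, 126708329 to 126740674, minus strand) had 62.6, 93.7, 67.7 and 69.5 CPM in OPCs, 9.50, 8.57, 9.06 and 7.90 CPM in adult NSCs and 26.5, 43.8, 38.3 and 17.2 CPM in postnatal NSCs. No group overlapped another. It was 2.33-fold higher in OPCs than in postnatal NSCs (log2 fold change 1.22 ± 0.24, edgeR adjusted p = 0.00135), 3.59-fold lower in adult than in postnatal NSCs (log2 fold change -1.84 ± 0.25, edgeR adjusted p = 0.00013) and 8.37-fold higher in OPCs than in adult NSCs (log2 fold change 3.07 ± 0.26, edgeR adjusted p = 1.91e-06). Exons of Kcna6 overlap those of Gm26673 on the other strand, and whether the counting used strand is not given in the sources used here.

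Kcna2, a delayed rectifier pore of myelinated axons, was the most abundant Kv1 gene in CPM. It had 124, 95.9, 129 and 117 CPM in OPCs, 161, 172, 147 and 161 CPM in adult NSCs and 83.2, 104, 75.5 and 113 CPM in postnatal NSCs. The adult libraries were above all others, and OPCs and postnatal NSCs overlapped. Kcna2 was 1.71-fold higher in adult than in postnatal NSCs (log2 fold change 0.77 ± 0.13, edgeR adjusted p = 0.000516) and 1.38-fold lower in OPCs than in adult NSCs (log2 fold change -0.46 ± 0.13, edgeR adjusted p = 0.0106), while the difference between OPCs and postnatal NSCs did not pass (log2 fold change 0.31 ± 0.13, edgeR adjusted p = 0.0693) but did without OPC 2 (0.0266) or postnatal NSC 4 (0.0319). Per kb, Kcna2 and Kcna6 stood close in OPCs, at 9.78 and 12.3 CPM per kb, and far apart in adult NSCs, at 13.5 and 1.47 CPM per kb.

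The other Kv1 genes were low. Kcna3, known for a role in the proliferation of OPCs, averaged 7.29 ± 1.94 CPM in OPCs, 8.63 ± 0.951 CPM in adult NSCs and 4.95 ± 1.73 CPM in postnatal NSCs. Its difference between adult and postnatal NSCs passed (log2 fold change 0.80 ± 0.27, edgeR adjusted p = 0.0233) but did not without adult NSC 1 or 3 or postnatal NSC 2, at 0.0507, 0.058 and 0.0511 as edgeR adjusted p. The difference between OPCs and postnatal NSCs did not pass (log2 fold change 0.56 ± 0.27, edgeR adjusted p = 0.105) but did without OPC 2 (0.0407) or postnatal NSC 4 (0.0444). Kcna1, a neighbour of Kcna6 on chromosome 6, averaged 0.470 ± 0.197 CPM in OPCs, 2.53 ± 0.439 CPM in adult NSCs and 0.957 ± 0.877 CPM in postnatal NSCs and was 5.41-fold lower in OPCs than in adult NSCs (log2 fold change -2.44 ± 0.71, edgeR adjusted p = 0.0125). Kcna4, an inactivating Kv1 pore, stayed at or under 0.571 CPM on average in every group and passed in no comparison, and Kcna5 had too few counts to be tested. Of the Kv beta genes, whose products bind the inner face of Kv1 channels, Kcnab2 averaged 17.9 ± 4.67, 15.3 ± 0.771 and 15.2 ± 1.66 CPM in OPCs, adult NSCs and postnatal NSCs and passed in no comparison.

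Kv3 channels, known for rapid opening and closing in fast-firing neurons, had a lower summed level in every OPC library than in any NSC library. Kcnc1 (chromosome 7, 46396497 to 46438704, plus strand) was its main gene, with 80.9, 70.9, 77.6 and 88.7 CPM in OPCs, 194, 197, 230.0 and 229.6 CPM in adult NSCs and 149.5, 114, 61.9 and 215 CPM in postnatal NSCs. OPCs and adult NSCs did not overlap, and the postnatal NSC libraries spread across both ranges, with postnatal NSC 3 lowest. Kcnc1 was 2.67-fold lower in OPCs than in adult NSCs (log2 fold change -1.42 ± 0.27, edgeR adjusted p = 0.00101). Its difference between OPCs and postnatal NSCs passed narrowly (log2 fold change -0.76 ± 0.27, edgeR adjusted p = 0.0359). That call was lost when any of OPC 1 to 4 or postnatal NSC 1 or 4 was left out (edgeR adjusted p 0.0539 to 0.0963), and in a fit of both groups alone (0.0855).

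Kcnc4 separated postnatal NSCs from both other groups. It had 1.11, 0.734, 0.404 and 0.913 CPM in OPCs, 0.819, 0.728, 0.957 and 0.802 CPM in adult NSCs and 7.38, 2.81, 1.23 and 8.87 CPM in postnatal NSCs. All 4 postnatal NSC libraries were above all others, over a wide range. It was 6.33-fold lower in OPCs (log2 fold change -2.66 ± 0.54, edgeR adjusted p = 0.00179) and 6.11-fold lower in adult NSCs (log2 fold change -2.61 ± 0.55, edgeR adjusted p = 0.0019) than in postnatal NSCs.

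The silent Kv genes code for subunits that make no channel alone but alter Kv2 channels. Of 10, 3 were tested. Kcng1 had 0.242, 0.122, 0.173 and 0.528 CPM in OPCs, 2.13, 1.87, 4.00 and 2.10 CPM in adult NSCs and 4.07, 1.26, 0.125 and 3.95 CPM in postnatal NSCs. OPCs were below every adult library and overlapped only postnatal NSC 3, which was far below the rest of its group. Kcng1 was 8.71-fold lower in OPCs than in postnatal NSCs (log2 fold change -3.12 ± 0.85, edgeR adjusted p = 0.0097) and 9.36-fold lower than in adult NSCs (log2 fold change -3.23 ± 0.86, edgeR adjusted p = 0.00769). Kcnv1 averaged 2.19 ± 0.823 CPM in OPCs, 5.36 ± 1.05 CPM in adult NSCs and 2.12 ± 1.10 CPM in postnatal NSCs, and was 2.54-fold higher in adult than in postnatal NSCs (log2 fold change 1.34 ± 0.38, edgeR adjusted p = 0.0105) and 2.46-fold lower in OPCs than in adult NSCs (log2 fold change -1.30 ± 0.39, edgeR adjusted p = 0.0141). Kcnf1, the most abundant of the silent genes, averaged 6.30 ± 1.32 CPM in OPCs, 10.6 ± 1.12 CPM in adult NSCs and 5.81 ± 2.89 CPM in postnatal NSCs. Its call in adult against postnatal NSCs (log2 fold change 0.87 ± 0.31, edgeR adjusted p = 0.0321) was lost when any 1 of adult NSC 1, 2 and 4 or postnatal NSC 2 and 4 was left out (edgeR adjusted p 0.0606 to 0.0922), with the Y-linked covariate (0.056) and in a fit of both groups alone (0.056).

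Kv7 (Kcnq) channels carry the slow M current that steadies excitable membranes. Kcnq3 averaged 4.47 ± 1.69 CPM in OPCs, 3.69 ± 0.728 CPM in adult NSCs and 6.43 ± 2.90 CPM in postnatal NSCs. It passed in no comparison of the edgeR fit used throughout. In adult against postnatal NSCs it did pass without postnatal NSC 4 (log2 fold change -1.01, edgeR adjusted p = 0.0199). With all libraries it passed there in DESeq2, an alternative test (log2 fold change -0.81, DESeq2 adjusted p = 0.0349). The same held with the replicate number as a block (edgeR adjusted p = 0.0484). Kcnq5 had 3.00, 0.815, 4.50 and 4.47 CPM in OPCs, 9.06, 9.35, 8.73 and 8.70 CPM in adult NSCs and 3.18, 3.09, 0.977 and 5.39 CPM in postnatal NSCs. The adult libraries were tightly grouped above all others. It was 2.83-fold higher in adult than in postnatal NSCs (log2 fold change 1.50 ± 0.49, edgeR adjusted p = 0.0213), a call lost without postnatal NSC 2 (0.0539). It was 2.82-fold lower in OPCs than in adult NSCs (log2 fold change -1.50 ± 0.50, edgeR adjusted p = 0.0243), a call lost without OPC 1 (0.0565).

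Of the EAG-type genes (Kcnh), 5 of 8 were tested. Kcnh2, the hERG gene of the cardiac action potential, was the most abundant in CPM, with 17.3 ± 2.76 CPM in OPCs, 20.3 ± 0.819 CPM in adult NSCs and 26.6 ± 4.20 CPM in postnatal NSCs. It was 1.53-fold lower in OPCs than in postnatal NSCs without overlap (log2 fold change -0.62 ± 0.14, edgeR adjusted p = 0.00295). In adult against postnatal NSCs its call (log2 fold change -0.39 ± 0.14, edgeR adjusted p = 0.0294) was lost when any 1 of the 4 adult libraries or postnatal NSC 1 was left out (edgeR adjusted p 0.0504 to 0.0746). Kcnh7, which also belongs to the ERG group, averaged 2.84 ± 1.88 CPM in OPCs, 2.66 ± 0.604 CPM in adult NSCs and 10.3 ± 5.54 CPM in postnatal NSCs. It was 3.87-fold lower in adult than in postnatal NSCs (log2 fold change -1.95 ± 0.49, edgeR adjusted p = 0.00532). It was 3.61-fold lower in OPCs than in postnatal NSCs (log2 fold change -1.85 ± 0.48, edgeR adjusted p = 0.00764), a call that was lost with the Y-linked covariate (0.0693).

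The opposite direction was held by Kcnh8 and Kcnh5. Kcnh8 averaged 4.73 ± 1.44 CPM in OPCs, 2.50 ± 0.268 CPM in adult NSCs and 1.66 ± 0.763 CPM in postnatal NSCs and was 2.86-fold higher in OPCs than in postnatal NSCs (log2 fold change 1.52 ± 0.33, edgeR adjusted p = 0.00273). Kcnh5 averaged 1.24 ± 0.177 CPM in OPCs, 0.377 ± 0.192 CPM in adult NSCs and 0.488 ± 0.255 CPM in postnatal NSCs and was 3.25-fold higher in OPCs than in adult NSCs (log2 fold change 1.70 ± 0.45, edgeR adjusted p = 0.00758). Kcnh4 averaged 0.898 ± 0.450 CPM in OPCs, 1.62 ± 0.113 CPM in adult NSCs and 1.93 ± 0.560 CPM in postnatal NSCs. Kcnh5 and Kcnh4 in OPCs against postnatal NSCs (log2 fold change 1.32 ± 0.41, edgeR adjusted p = 0.0187 for Kcnh5 and log2 fold change -1.12 ± 0.35, edgeR adjusted p = 0.0199 for Kcnh4) and Kcnh8 in OPCs against adult NSCs (log2 fold change 0.92 ± 0.33, edgeR adjusted p = 0.0347) also passed. None of these 3 calls held throughout. That of Kcnh5 was lost with the Y-linked covariate (log2 fold change 0.94, edgeR adjusted p = 0.151) and without postnatal NSC 4 (0.0517). That of Kcnh4 was lost in a fit of both groups alone (edgeR adjusted p = 0.0634) and without OPC 4 (0.0557). That of Kcnh8 was lost with the Y-linked covariate (edgeR adjusted p = 0.0669) and when any 1 of adult NSC 1 to 4 or OPC 1, 2 and 4 was left out (0.0521 to 0.0995).

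Inward rectifiers were led by Kcnj10 (chromosome 1, 172341210 to 172374085, plus strand), the gene for the main potassium channel of astrocytes and oligodendrocytes, which had the highest level per kb of all members in every group. It had 448, 392, 387 and 354 CPM in OPCs, 457, 465, 337 and 455 CPM in adult NSCs and 464, 551, 519 and 474 CPM in postnatal NSCs. The groups lay close together, with every OPC library just under every postnatal NSC library. The difference between OPCs and postnatal NSCs passed (log2 fold change -0.35 ± 0.11, edgeR adjusted p = 0.0264) but was lost without OPC 3, OPC 4 or postnatal NSC 2 (0.0519 to 0.0805) and with the Y-linked covariate (0.159). Neither other comparison passed (log2 fold change -0.23 ± 0.11, edgeR adjusted p = 0.109 for adult against postnatal NSCs). Kcnj16, whose product pairs with that of Kcnj10, had 74.2, 18.4, 83.9 and 61.9 CPM in OPCs, 84.8, 82.8, 78.8 and 77.5 CPM in adult NSCs and 60.8, 38.3, 25.3 and 85.1 CPM in postnatal NSCs. OPC 2 and postnatal NSC 3 were the lowest of their groups, and no comparison passed.

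The remaining inward rectifiers were low, and several differed widely. Kcnj9, a G protein-gated subunit, had 1.02, 1.92, 0.634 and 1.01 CPM in OPCs, 0.273, 0.104, 0.0563 and 0.185 CPM in adult NSCs and 0.0994, 0.176, 0.0501 and 0.0497 CPM in postnatal NSCs. The OPC libraries were above all others. It was 11.3-fold higher in OPCs than in postnatal NSCs (log2 fold change 3.50 ± 0.50, edgeR adjusted p = 0.000162) and 7.32-fold higher than in adult NSCs (log2 fold change 2.87 ± 0.53, edgeR adjusted p = 0.000783). Kcnj12, a strong inward rectifier, had 0.678, 0.408, 0.865 and 0.577 CPM in OPCs, 0.218, 0.364, 0.169 and 0.185 CPM in adult NSCs and 1.74, 3.44, 3.61 and 1.22 CPM in postnatal NSCs. Here postnatal NSCs were highest without overlap. Kcnj12 was 3.99-fold lower in OPCs (log2 fold change -2.00 ± 0.39, edgeR adjusted p = 0.00142) and 10.4-fold lower in adult NSCs (log2 fold change -3.38 ± 0.45, edgeR adjusted p = 0.000112) than in postnatal NSCs, and with the Y-linked covariate the log2 fold change between OPCs and postnatal NSCs was -1.37.

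Kcnj2 and Kcnj4, strong rectifiers like Kcnj12, were lowest in OPCs. Kcnj2 averaged 2.67 ± 1.17 CPM in OPCs, 6.49 ± 0.606 CPM in adult NSCs and 5.55 ± 2.40 CPM in postnatal NSCs and was 2.44-fold lower in OPCs than in adult NSCs (log2 fold change -1.29 ± 0.37, edgeR adjusted p = 0.0116). Kcnj4 averaged 1.20 ± 0.537 CPM in OPCs, 3.49 ± 0.587 CPM in adult NSCs and 2.71 ± 1.12 CPM in postnatal NSCs and was 2.94-fold lower in OPCs than in adult NSCs (log2 fold change -1.56 ± 0.39, edgeR adjusted p = 0.00515). Both also passed in OPCs against postnatal NSCs, and both calls were lost in a fit of these groups alone, at an edgeR adjusted p of 0.0854 for Kcnj2 and 0.0626 for Kcnj4. Leaving out OPC 1 (edgeR adjusted p = 0.0627) or postnatal NSC 1 (0.0919) also ended the call of Kcnj2, and leaving out OPC 4 (0.0673) or postnatal NSC 1 (0.0512) that of Kcnj4. Kcnj11, the pore of ATP-sensitive channels, averaged 1.29 ± 0.531 CPM in OPCs, 0.270 ± 0.136 CPM in adult NSCs and 0.793 ± 0.304 CPM in postnatal NSCs and was 4.81-fold higher in OPCs than in adult NSCs (log2 fold change 2.27 ± 0.47, edgeR adjusted p = 0.00168). The sulfonylurea receptor genes Abcc8 and Abcc9, whose products complete that channel, had too few counts to be tested.

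Of the two-pore domain channels, Kcnk1 (chromosome 8, 125995170 to 126030685, plus strand), a weakly conducting leak channel found in astrocytes, was highest in adult NSCs. It had 9.29, 5.26, 12.6 and 7.40 CPM in OPCs, 21.6, 21.7, 22.0 and 22.4 CPM in adult NSCs and 6.83, 4.98, 3.33 and 6.46 CPM in postnatal NSCs. The adult libraries lay within 1 CPM of one another and above all others. Kcnk1 was 4.06-fold higher in adult than in postnatal NSCs (log2 fold change 2.02 ± 0.26, edgeR adjusted p = 1e-04) and 2.54-fold lower in OPCs than in adult NSCs (log2 fold change -1.35 ± 0.26, edgeR adjusted p = 0.001). Between OPCs and postnatal NSCs it did not pass (log2 fold change 0.67 ± 0.26, edgeR adjusted p = 0.0504) but did without OPC 2 (0.0126) or postnatal NSC 1 (0.0393). With all libraries it passed in DESeq2 (DESeq2 adjusted p = 0.0255) and with DESeq2 size factors in edgeR (edgeR adjusted p = 0.0486). Of 5 astrocyte markers tested, none was higher and 3 were lower in adult than in postnatal NSCs. Their part in the result on Kcnk1 was not tested.

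Kcnk13, known from microglia of the brain, had 0, 0.0815, 0.461 and 0.336 CPM in OPCs, 3.06, 2.75, 2.31 and 2.96 CPM in adult NSCs and 0.745, 0.719, 0.501 and 0.994 CPM in postnatal NSCs. No group overlapped another. It was 3.73-fold higher in adult than in postnatal NSCs (log2 fold change 1.90 ± 0.47, edgeR adjusted p = 0.00495) and 12.9-fold lower in OPCs than in adult NSCs (log2 fold change -3.70 ± 0.56, edgeR adjusted p = 0.00019). The 5 microglial markers summed to between 1.142 and 1.97 CPM in OPCs and between 0.491 and 0.802 CPM in adult NSCs. In postnatal NSCs their sum was between 0.175 and 0.546 CPM. Cx3cr1 had no counts in any library, and P2ry12 was most of the sum in OPCs and adult NSCs. P2ry12, the 1 marker tested, was higher in OPCs than in postnatal NSCs (log2 fold change 2.54 ± 0.59, edgeR adjusted p = 0.00417). It was also higher in OPCs than in adult NSCs (log2 fold change 1.65 ± 0.60, edgeR adjusted p = 0.037). The part of microglia in the result on Kcnk13 was not tested. The call of Kcnk13 in OPCs against postnatal NSCs (log2 fold change -1.80 ± 0.57, edgeR adjusted p = 0.0216) was lost in a fit of these groups alone (0.0722) and without OPC 2 (0.0502). Without OPC 3 the log2 fold changes of OPCs were -2.39 against postnatal NSCs and -4.29 against adult NSCs.

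Kcnk9 (chromosome 15, 72501089 to 72546340, minus strand), an acid-sensitive leak channel, had the largest fold changes of the family. It had 0.0484, 0.163, 0 and 0.0480 CPM in OPCs, from 1, 4, 0 and 1 counts, against 10.3, 7.12, 3.55 and 6.85 CPM in adult NSCs and 0.745, 9.70, 2.83 and 5.12 CPM in postnatal NSCs. OPCs were thus near the limit of detection, and both kinds of NSC overlapped over a wide range. Kcnk9 was 61.2-fold lower in OPCs than in postnatal NSCs (log2 fold change -5.94 ± 0.91, edgeR adjusted p = 0.000277) and 92-fold lower than in adult NSCs (log2 fold change -6.52 ± 0.91, edgeR adjusted p = 9.69e-05). With so few counts in OPCs, the size of the fold is uncertain. Between OPCs and postnatal NSCs, the log2 fold change was -6.94 without OPC 2, -5.28 without postnatal NSC 2 and -5.18 with the Y-linked covariate, and against adult NSCs it was -7.49 without OPC 2.

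Kcnk2 and Kcnk10, mechanosensitive leak channels and the most abundant of this subfamily in CPM, passed in no comparison with all libraries. Kcnk2 averaged 35.3 ± 8.89 CPM in OPCs, 38.8 ± 1.21 CPM in adult NSCs and 27.6 ± 10.6 CPM in postnatal NSCs. Its difference between adult and postnatal NSCs (log2 fold change 0.49 ± 0.24, edgeR adjusted p = 0.105) passed without postnatal NSC 3 (log2 fold change 0.77, edgeR adjusted p = 0.00819) and with the Y-linked covariate (log2 fold change 0.66, edgeR adjusted p = 0.0408). Its difference between OPCs and postnatal NSCs (log2 fold change 0.35 ± 0.24, edgeR adjusted p = 0.25) likewise passed without postnatal NSC 3 (log2 fold change 0.63, edgeR adjusted p = 0.0212). Kcnk10, named after its values were seen, averaged 26.2 ± 6.28 CPM in OPCs, 32.3 ± 4.44 CPM in adult NSCs and 33.9 ± 17.5 CPM in postnatal NSCs. Kcnk3, a relative of Kcnk9, averaged 3.11 ± 1.81 CPM in OPCs, 0.726 ± 0.299 CPM in adult NSCs and 1.66 ± 0.558 CPM in postnatal NSCs. It was 4.28-fold higher in OPCs than in adult NSCs although the libraries overlapped (log2 fold change 2.10 ± 0.52, edgeR adjusted p = 0.00495), the opposite direction to Kcnk9.

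Among the calcium-activated channels of small conductance, Kcnn2 and Kcnn1 were highest in postnatal NSCs. Kcnn2 had 8.08, 6.48, 3.00 and 2.35 CPM in OPCs, 1.09, 1.77, 1.46 and 1.17 CPM in adult NSCs and 11.1, 17.2, 33.1 and 13.4 CPM in postnatal NSCs. The groups did not overlap, and postnatal NSC 3 was the highest library. Kcnn2 was 3.74-fold lower in OPCs (log2 fold change -1.90 ± 0.41, edgeR adjusted p = 0.00276) and 13.5-fold lower in adult NSCs (log2 fold change -3.76 ± 0.47, edgeR adjusted p = 7.59e-05) than in postnatal NSCs, and 3.62-fold higher in OPCs than in adult NSCs (log2 fold change 1.86 ± 0.46, edgeR adjusted p = 0.00489). Kcnn1 had the same order, with 3.19 ± 0.630 CPM in OPCs, 1.32 ± 0.128 CPM in adult NSCs and 5.90 ± 1.26 CPM in postnatal NSCs, and was 4.45-fold lower in adult than in postnatal NSCs (log2 fold change -2.15 ± 0.22, edgeR adjusted p = 2.39e-05). Both genes overlap exons of another gene on the opposite strand.

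Kcnt1, which codes for a sodium-activated channel, had 3.29, 2.37, 4.32 and 2.35 CPM in OPCs, 2.89, 3.79, 2.31 and 3.21 CPM in adult NSCs and 10.0, 10.6, 12.5 and 8.95 CPM in postnatal NSCs. OPCs and adult NSCs overlapped, below every postnatal NSC library. It was 3.41-fold lower in OPCs (log2 fold change -1.77 ± 0.23, edgeR adjusted p = 7.95e-05) and 3.43-fold lower in adult NSCs (log2 fold change -1.78 ± 0.23, edgeR adjusted p = 8.95e-05) than in postnatal NSCs. The difference between OPCs and adult NSCs did not pass (log2 fold change 0.01 ± 0.23, edgeR adjusted p = 0.981). No pore gene of this subfamily was higher in OPCs or in adult NSCs than in postnatal NSCs, and of the 8 tested, 3 were lower in OPCs and 6 in adult NSCs.

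Kcnma1, the pore of the large-conductance BK channel, had 23.4, 9.38, 23.4 and 25.0 CPM in OPCs, 18.9, 16.7, 16.9 and 17.5 CPM in adult NSCs and 16.0, 8.81, 3.31 and 17.7 CPM in postnatal NSCs. OPC 2 and postnatal NSC 3 were the lowest of their groups, and no comparison passed. Its auxiliary genes did differ. Kcnmb4 (chromosome 10, 116417861 to 116473878, minus strand), the BK beta subunit of the brain, had 60.8, 49.6, 53.5 and 55.0 CPM in OPCs, 16.3, 14.6, 19.8 and 15.5 CPM in adult NSCs and 29.8, 22.4, 22.9 and 19.0 CPM in postnatal NSCs. OPCs were above all other libraries. Kcnmb4 was 2.32-fold higher in OPCs than in postnatal NSCs (log2 fold change 1.22 ± 0.14, edgeR adjusted p = 3.92e-05) and 3.31-fold higher than in adult NSCs (log2 fold change 1.73 ± 0.14, edgeR adjusted p = 1.64e-06), and 1.42-fold lower in adult than in postnatal NSCs with overlapping libraries (log2 fold change -0.51 ± 0.14, edgeR adjusted p = 0.00921). It overlaps a pair of antisense genes on the opposite strand.

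Kcnmb1, the BK beta subunit of smooth muscle, had the reverse order at a low level, with 0.0484, 0, 0.173 and 0.0961 CPM in OPCs, 1.86, 1.72, 1.13 and 2.41 CPM in adult NSCs and 0.472, 0.281, 0.476 and 0.323 CPM in postnatal NSCs. OPCs held 6 counts in all. It was 4.56-fold higher in adult than in postnatal NSCs (log2 fold change 2.19 ± 0.40, edgeR adjusted p = 0.000855) and lower in OPCs than in postnatal NSCs (log2 fold change -2.32 ± 0.57, edgeR adjusted p = 0.00574) and than in adult NSCs (log2 fold change -4.51 ± 0.54, edgeR adjusted p = 2.89e-05). Without OPC 3 the log2 fold changes of OPCs were -2.95 and -5.15. The 5 pericyte and smooth muscle markers summed to between 3.689 and 9.622 CPM in OPCs. Their sum was between 16.89 and 43.49 CPM in adult NSCs and between 44.68 and 69.59 CPM in postnatal NSCs. Acta2 was the most abundant of them in both kinds of NSC. Of the 3 tested, 1 was higher and 2 were lower in OPCs than in adult NSCs. Their part in the result on Kcnmb1 was not tested.

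Among the KCNE genes, whose single-span products modify Kv channels, Kcne1l was the 1 of 5 that could be tested. It had 28.1, 31.6, 9.86 and 10.4 CPM in OPCs, 1.69, 1.82, 1.46 and 1.17 CPM in adult NSCs and 13.9, 14.9, 43.7 and 6.56 CPM in postnatal NSCs. Adult NSCs were far below both other groups, which overlapped and varied widely within themselves, with postnatal NSC 3 and OPC 2 the highest of their groups. Kcne1l was 12.8-fold lower in adult than in postnatal NSCs (log2 fold change -3.68 ± 0.61, edgeR adjusted p = 0.000479) and 12.9-fold higher in OPCs than in adult NSCs (log2 fold change 3.70 ± 0.62, edgeR adjusted p = 0.000364). Without postnatal NSC 3 the first log2 fold change was -2.94. Oligodendrocyte markers, a list of 5, were also lowest in adult NSCs in their summed level, between 27.25 and 76.93 CPM in OPCs, between 14.3 and 17.68 CPM in adult NSCs and between 33.65 and 327.3 CPM in postnatal NSCs, and their part in the result was not tested.

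**Figure D4:**
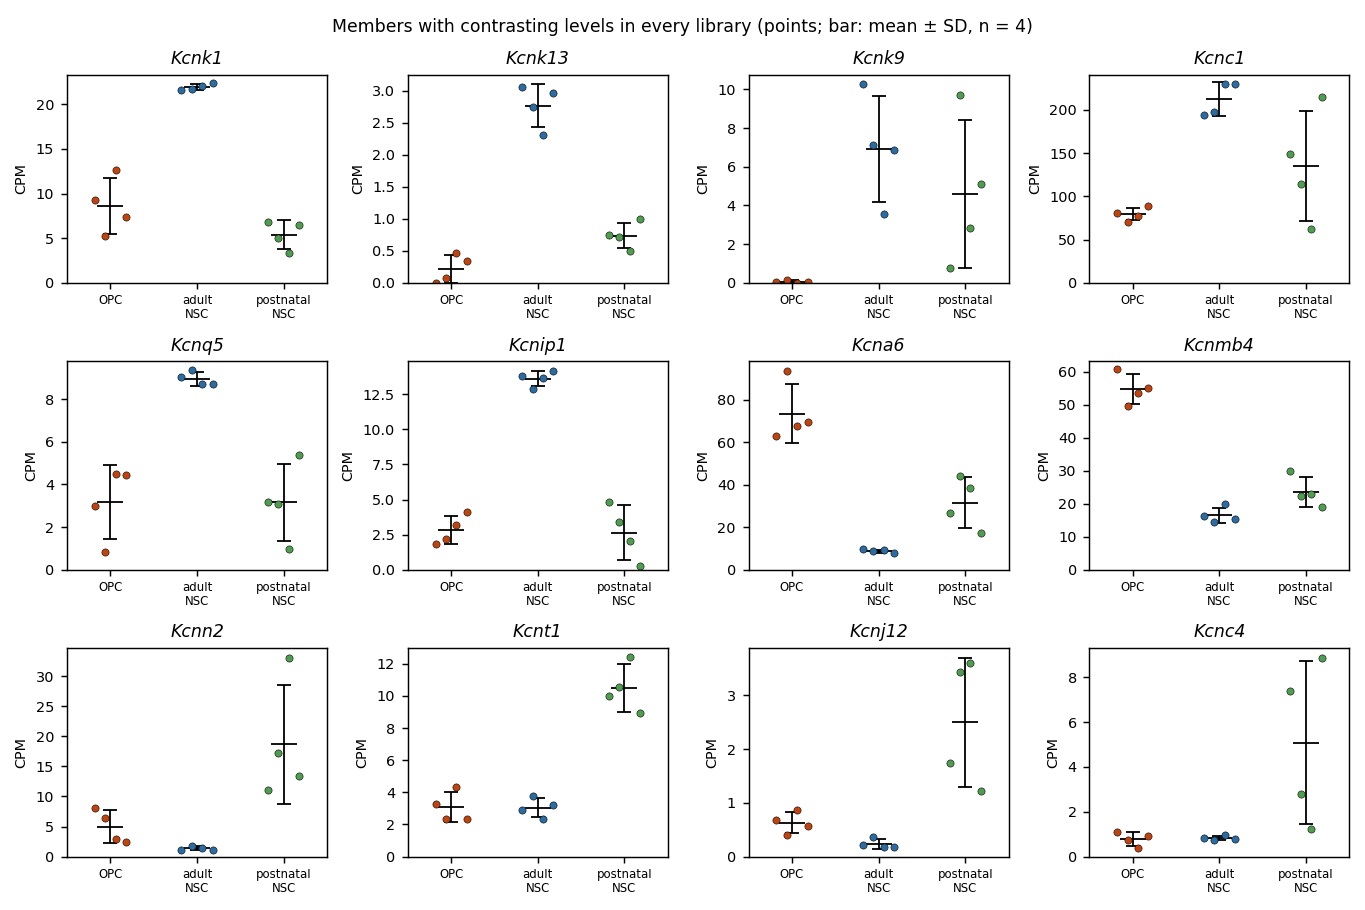
Level in CPM (vertical axis) of 12 potassium channel genes, one panel each, in OPC, adult NSC and postnatal NSC libraries, with points for the 4 libraries of a group and bars for their mean ± SD. Kcnk1, Kcnip1 and Kcnq5 are highest in adult NSCs, Kcna6 and Kcnmb4 in OPCs, and Kcnn2, Kcnt1, Kcnj12 and Kcnc4 in postnatal NSCs, while Kcnk9 is near 0 in OPCs.

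The 36 members left out of the tests had too few counts to pass the filter. Kcnj1, Kcnk16 and Kcnv2 had no counts in any library. The highest group mean among the others was 0.653 CPM for Kcns2, a silent Kv subunit, and Kcnrg, a soluble regulator of Kv channels that is no channel subunit itself, reached 0.586 CPM. Both were named for their rank here, Kcns2 after its values were seen. The comparisons thus cover the subfamilies unequally, with 4 of 5 KCNE genes, 7 of 10 silent Kv genes, 7 of 14 two-pore domain genes and 6 of 15 inward rectifiers not tested.

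Members that lie beside each other in the genome did not always move together. Kcna1 and Kcna6 are 61.9 kb apart on chromosome 6, and their log2 fold changes were -2.44 for Kcna1 and 3.07 for Kcna6 in OPCs against adult NSCs. Kcnj9 and Kcnj10 are 11.9 kb apart on chromosome 1, with log2 fold changes of 3.50 for Kcnj9 and -0.35 for Kcnj10 in OPCs against postnatal NSCs. Kcna3 and Kcna2, 63.1 kb apart on chromosome 3, had like values in adult against postnatal NSCs, 0.80 and 0.77. Kcnmb1 lies within Kcnip1 on chromosome 11, on the opposite strand, and both were higher in adult than in postnatal NSCs, by 2.19 and 2.37 on the log2 scale.

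Beyond the family, a list of 32 genes for channel partners and for the transport of potassium was examined, of which 24 were tested. In OPCs against postnatal NSCs, 6 were higher and 8 lower, or 58.3% called against 45.1% of all genes. In adult against postnatal NSCs, 5 were higher and 16 lower, or 87.5% against 53.1%, and the lower ones were 66.7% of the list against 27.9% of all genes. In OPCs against adult NSCs, 11 were higher and 7 lower, or 75% against 51.0%. The medians of their log2 fold changes were 0.02, -0.64 and 0.50 in the same order of comparisons, against -0.008, -0.025 and 0.006 over all genes. Adam22 and Adam23, membrane proteins found with Kv1 channels at the axon, were both low in adult NSCs. Adam22 averaged 68.0 ± 8.94 CPM in OPCs, 26.0 ± 1.50 CPM in adult NSCs and 37.4 ± 9.30 CPM in postnatal NSCs and was 1.82-fold higher in OPCs than in postnatal NSCs (log2 fold change 0.86 ± 0.15, edgeR adjusted p = 0.000743). Adam23 averaged 11.9 ± 2.73 CPM in OPCs, 2.69 ± 0.347 CPM in adult NSCs and 11.5 ± 1.20 CPM in postnatal NSCs and was 4.28-fold lower in adult than in postnatal NSCs (log2 fold change -2.10 ± 0.19, edgeR adjusted p = 9.8e-06). Hcn4, a pacemaker cation channel, averaged 1.30 ± 0.150 CPM in OPCs, 0.0859 ± 0.0786 CPM in adult NSCs and 0.388 ± 0.113 CPM in postnatal NSCs and was 3.35-fold higher in OPCs than in postnatal NSCs (log2 fold change 1.74 ± 0.36, edgeR adjusted p = 0.00201).

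Transport of potassium also differed between the cultures. Slc12a7, a potassium-chloride cotransporter, averaged 3.85 ± 1.81 CPM in OPCs, 28.2 ± 2.02 CPM in adult NSCs and 22.1 ± 7.95 CPM in postnatal NSCs, and was 5.78-fold lower in OPCs than in postnatal NSCs (log2 fold change -2.53 ± 0.32, edgeR adjusted p = 7.7e-05). Atp1b1, a beta subunit of the sodium-potassium pump, was highest in adult NSCs, with 13.8 ± 4.65 CPM in OPCs, 82.3 ± 8.49 CPM in adult NSCs and 42.0 ± 5.89 CPM in postnatal NSCs (5.99-fold lower in OPCs than in adult NSCs, log2 fold change -2.58 ± 0.23, edgeR adjusted p = 3.27e-06). These genes were chosen from the list after their values were seen.

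Leaving out both libraries that stood apart, OPC 2 and postnatal NSC 3, changed the OPC comparison most. Against postnatal NSCs, 18 members were then higher and 18 lower of 57 tested, with 54.4% of all genes called, and 27 members were called the same way with and without both. Kcnk2, Kcna3, Kcna2, Kcnk3, Kcnk1, Kcnma1 and Kcnip2 joined the higher genes, and Kcna1 and Kcnk5 the lower ones. The largest of the gains was Kcnk3, with a log2 fold change of 1.48 (edgeR adjusted p = 0.00161), followed among the higher genes by Kcnma1 at 0.76 (edgeR adjusted p = 0.00863). Kcnj10 and Kcnj2 dropped below the threshold, at log2 fold changes of -0.33 (edgeR adjusted p = 0.0503) and -0.78 (edgeR adjusted p = 0.0598). Without OPC 2 alone, 16 members were higher and 17 lower (47.9% of all genes called), and without postnatal NSC 3 alone, 14 and 19 (48.6%). In adult against postnatal NSCs, 13 members were higher and 20 lower without both libraries, with 58.0% of all genes called and 30 members called the same way. Gains there were Kcnk2 (log2 fold change 0.76, edgeR adjusted p = 0.00629), Kcnk3 (log2 fold change -0.97, edgeR adjusted p = 0.0196) and Kcna1 (log2 fold change 1.01, edgeR adjusted p = 0.0333), while 2 of the calcium- and sodium-activated genes lost their call as lower (edgeR adjusted p 0.0716 and 0.0863). The calls of Kcnd2, Kcnd3, Kcnip3, Kcna6 and Kcnmb4 as higher in OPCs than in postnatal NSCs remained without either library and without both.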

How the data were processed

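Per the labels' protocols, poly(A) RNA of 12 cultures went into libraries made with a stranded kit. The authors deposited raw read counts per Ensembl gene, without normalization. STAR, FastQC, featureCounts 1.22.2 and the GRCm38 build are listed in the submitters' processing notes, while the annotation release and the handling of strand and of shared reads are not given in the sources used here. Symbols, exons and coordinates come from GENCODE M21, in which 55141 of 55401 identifiers were found. Exons of 28 members overlap another gene, 26 of them on the other strand, so that their counts are uncertain. Of those described, these are Kcna6, Kcnd3, Kcnh7, Kcnj9, Kcnk1, Kcnk2, Kcnk3, Kcnma1, Kcnmb4, Kcnn1, Kcnn2 and Kcnq5, and on the same strand Kcnab2.

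Counts were fitted in R 4.3.3 with edgeR 4.0.16 (quasi-likelihood, two-sided, TMM scaling, a term per group, all 12 libraries) after filterByExpr by group with a minimum count of 10 and a minimum total of 15. P-values were adjusted by Benjamini-Hochberg over all 16135 genes of a comparison, with a threshold of 0.05, and measure the spread between these cultures. The SE is the size of the log2 fold change over the square root of F. The biological coefficient of variation was 22.6%. The fit was tested on simulated data. Alternatives were DESeq2 1.42.0, its size factors, no filter, thinned counts, both groups of a comparison alone, the replicate number as a block, a Y-linked covariate and libraries left out. The labels do not say that a replicate number marks a shared litter.

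The members, subfamilies and lists were chosen with earlier results of these data known, and no list was tested as a whole. Named genes are the most abundant member of each subfamily, up to 10 called members a direction and comparison with the largest fold change whose higher group averaged 1 CPM or more, and 17 genes known from glia or excitable cells. Kcnd1, Kcnip4, Kcnj1, Kcnk5, Kcnk10, Kcnk16, Kcns2 and Kcnv2 were named after their values were seen. Some genes are not reported here.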

Additional observations from a re-analysis of the deposited data

Results flagged for a closer look

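In 9 of the 177 sets of 4 libraries examined, 1 library lay far from the other 3 by Dixon's criterion. This share is near the 1 in 20 or so that chance gives. OPC 2 accounted for 3 of these. It had 201 CPM of Kcnip3, against 248 to 256 CPM in the other OPC libraries, 9.38 CPM of Kcnma1, against 23.4 to 25.0 CPM, and 12.6 CPM of Kcnip2, against 5.04 to 6.34 CPM. This library was also low in replication genes.

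Adult NSC 3 accounted for 4. Kcnj10 stood at 337 CPM, against 455 to 465 CPM in the other adult NSC libraries, and Kcng1 at 4.00 CPM, against 1.87 to 2.13 CPM. The summed level of inward rectifiers, most of it Kcnj10 itself, was 427 CPM, against 544 to 559 CPM. That of two-pore domain channels was 102 CPM, against 113 to 114 CPM. Its level of replication genes was like that of the other adult libraries.

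In adult NSC 4, Kcnk3 had 1.17 CPM, against 0.546 to 0.624 CPM in the other adult NSC libraries. In OPC 1, the summed level of EAG-type channels was 33.7 CPM, against 24.9 to 25.5 CPM in the other OPC libraries.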

How the results depend on the processing

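Over 115 results on members examined singly, 82 passed the test, and 65 of these kept direction and call in every alternative run. None of the called results changed direction. The values that changed sign all belonged to small differences that did not pass, and the cause was not tested. On the log2 scale these were, without a filter, -0.01 for Kcne1l and -0.032 for Kcnq5 (both OPCs against postnatal NSCs) and -0.022 for Kcnab2 (adult against postnatal NSCs). With both groups of a comparison alone, Kcnab2 was -0.002. With thinned counts it was -0.008 and Kcnq5 was -0.038. With the Y-linked covariate, Kcnq5 was -0.22, Kcnf1 -0.03 and Kcnj16 -0.007, all in OPCs against postnatal NSCs. Without OPC 2 and postnatal NSC 3, Kcnab2 was -0.051 and Kcnd3 in OPCs against adult NSCs 0.12.

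Leaving out 1 library at a time gave ranges across 0 for Kcne1l (-0.32 to 0.76), Kcnq5 (-0.30 to 0.35), Kcnf1 (-0.16 to 0.41) and Kcnj16 (-0.05 to 0.48) in OPCs against postnatal NSCs, for Kcnab2 (-0.047 to 0.044), Kcna4 (-0.51 to 0.82) and Kcnj2 (-0.013 to 0.513) in adult against postnatal NSCs, and for Kcnd3 (-0.13 to 0.12) and Kcnk2 (-0.269 to 0.012) in OPCs against adult NSCs.

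The median over the members moved without a filter, to -0.43 in OPCs against postnatal NSCs, -0.54 in adult against postnatal NSCs and 0.10 in OPCs against adult NSCs, where genes with few counts entered it. It was -0.12 in OPCs against postnatal NSCs with these groups alone, -0.29 in adult against postnatal NSCs with thinned counts, and -0.084 and -0.138 in these 2 comparisons with the Y-linked covariate. Without OPC 2 and postnatal NSC 3 it was 0.005 in OPCs against postnatal NSCs and 0.101 in OPCs against adult NSCs, and 18 members were higher in OPCs than in postnatal NSCs. With 1 library left out it ranged between -0.319 and -0.048 in OPCs against postnatal NSCs, between -0.275 and -0.179 in adult against postnatal NSCs and between -0.028 and 0.127 in OPCs against adult NSCs.

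With 1 library left out, 11 to 16 members were higher and 14 to 19 lower in OPCs against postnatal NSCs, 8 to 12 and 19 to 24 in adult against postnatal NSCs, and 15 to 17 and 14 to 15 in OPCs against adult NSCs. DESeq2 called 12 and 19, 12 and 24, and 17 and 17. In a fit of OPCs and postnatal NSCs alone, 12 members were lower. With the replicate number as a block, 11 and 18, 13 and 21, and 17 and 14 were called. Deviations of libraries with the same number correlated between -0.416 and 0.384. Libraries with different numbers were not set beside them, so whether the numbers mark shared litters was not tested. Genes under about 1 CPM rest on few counts in OPC and adult NSC libraries, which were sequenced less deeply than postnatal NSC libraries.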
